A study of Mus musculus with 2 samples.

Results

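The suppressors of cytokine signalling, Socs1 to Socs7, and Cish, the family's founding member, were followed in T helper 2 (Th2) cells lacking Ecm1. All 8 genes were found on the array by their symbols, through 24 of the 34945 probe sets that carry 1 gene symbol, among 18193 named genes. Each group was 1 array: Th2 cells from Ecm1 knockout mice (Th2 KO) and Th2 cells from wild-type mice (Th2 WT). Both groups shared the C57BL/6 strain, a description as female and 6 weeks of age, and a culture of 4 days. Spleen CD4 cells were purified magnetically and stimulated with plate-bound anti-CD3 (3 µg/ml) and anti-CD28 (2 µg/ml), with IL-4 at 10 ng per volume that the label garbles, and with antibodies blocking IFN-γ and IL-12 at 10 µg/ml each. The design text calls the starting cells naive, but the purification selected on CD4 alone. The labels give neither the kind of Ecm1 allele nor how many mice stand behind an array. Without replicates no difference carries a test, an SD between animals or a p-value, and every value below describes these 2 arrays.

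SOCS proteins are induced by cytokines through the JAK kinases and STAT transcription factors, and they then switch the same pathway off. Each carries an SH2 domain, which docks on phosphorylated tyrosines of receptors or kinases, and a C-terminal SOCS box, which recruits a ubiquitin ligase built on elongins B and C and cullin 5. In T cells, Cish and Socs2 are classic STAT5 targets downstream of IL-2, Socs1 restrains interferon-γ and common γ-chain cytokines, and Socs3 binds the Il6st receptor chain and has been linked to Th2 cells.

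The promoters of 3 members, all of which read lower in the knockout, show where STAT-type letters lie. Windows were used for Cish, Socs1, Socs3 and Socs4 only, so Socs2, the member with the highest value, has none here. The search passed over member windows on a further chromosome, so a member not listed may still have a window in RefSeq. The windows below run from 250 bases before a transcript start through the first 30 bases after it, from RefSeq on GRCm38.p6, and capitals mark every match to TTCNNNGAA, the palindrome that most STAT factors bind. They are Cish at chr9:107296409-107296688 on the plus strand, Socs3 at chr11:117969337-117969616 on the minus strand, and Socs1 at chr16:10785507-10785786 on the minus strand. Cish and Socs3 are shown because they hold matches, and Socs1 as a close relative of Socs3.
Cish: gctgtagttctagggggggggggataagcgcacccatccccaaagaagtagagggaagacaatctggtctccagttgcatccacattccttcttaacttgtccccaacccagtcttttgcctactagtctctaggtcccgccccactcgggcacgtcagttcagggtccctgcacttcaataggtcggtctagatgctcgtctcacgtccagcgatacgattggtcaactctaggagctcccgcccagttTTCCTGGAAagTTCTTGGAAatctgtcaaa
Socs3: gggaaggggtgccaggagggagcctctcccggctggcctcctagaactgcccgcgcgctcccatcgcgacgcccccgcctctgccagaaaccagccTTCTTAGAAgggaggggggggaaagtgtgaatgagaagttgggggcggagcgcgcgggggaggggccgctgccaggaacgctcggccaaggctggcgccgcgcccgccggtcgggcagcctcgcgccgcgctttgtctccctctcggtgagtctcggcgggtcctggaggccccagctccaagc
Socs1: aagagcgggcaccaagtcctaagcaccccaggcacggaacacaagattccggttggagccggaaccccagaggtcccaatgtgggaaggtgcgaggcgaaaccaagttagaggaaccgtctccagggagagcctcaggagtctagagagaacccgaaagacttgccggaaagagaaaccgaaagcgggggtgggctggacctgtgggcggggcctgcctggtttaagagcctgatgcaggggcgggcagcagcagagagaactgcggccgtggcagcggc

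Both strands of the full windows of 300 bases, which end 50 bases after the start, were searched for TTCNNNGAA and for the spacing that STAT6 favours, the same half-sites with 1 more base between them. Neither motif can contain the other. Cish held 2 matches to TTCNNNGAA, TTCCTGGAA at bases 1 to 9 and TTCTTGGAA at bases 12 to 20 counted from the start. Socs3 held 1, TTCTTAGAA at bases -154 to -146. Among 32851 RefSeq promoter windows, 8.30% held at least 1 such match and 0.457% held at least 2. The STAT6 spacing, present in 6.95% of windows, was in none of the windows used for Cish, Socs1, Socs3 and Socs4, and Socs1 and Socs4 had neither motif. These matches describe the letters only, since no binding was measured.

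Signals are given as knockout against wild type. Ecm1 read 19.3 against 29114.7, in step with the labels, though no source used here places its probe set relative to the deletion. The Y-linked Eif2s3y read 2214.4 against 25.0, and Xist 8715.3 against 19739.9, while the labels describe female mice. Sex-linked RNA thus differed between the arrays along with genotype, and sex and genotype cannot be told apart in any difference below. The sample descriptions name liver, but the 4 hepatocyte markers found, albumin (Alb) among them, lay below the floor on each array. The floor is each array's median signal, 65.5 against 69.2, and a probe set is called measured when it reaches it on both arrays. The log2 difference is always knockout minus wild type, centred on the median of all measured probe sets (-0.10 before centring), and a gene takes the value of its brightest probe set. Between the 2 brightest measured probe sets of a gene, 4657 genes gave a technical SD of 0.36 on this scale, and error from mice, cultures and arrays comes on top.

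The family did not move as a unit. Socs3 was the only member at least 2-fold apart between the arrays, and it was lower in the knockout. Socs2 was higher and stopped just short of 2-fold, and Socs1 was lower within 2-fold. Socs5 was lower on its brighter probe set and higher on the other, and Cish, Socs4, Socs6 and Socs7 lay within 1 technical SD of 0. Thus 1 of 8 members passed 2-fold, where 11.6% of 10144 measured genes did, and 1 was lower where 4.45% of those genes were. That count is close to the background. The members' median log2 difference was -0.13, against 0.04 for all measured genes. Of the 24 probe sets, 19 were measured, 1 reached the floor in the knockout alone and 4 on neither array.

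**Figure D1:**
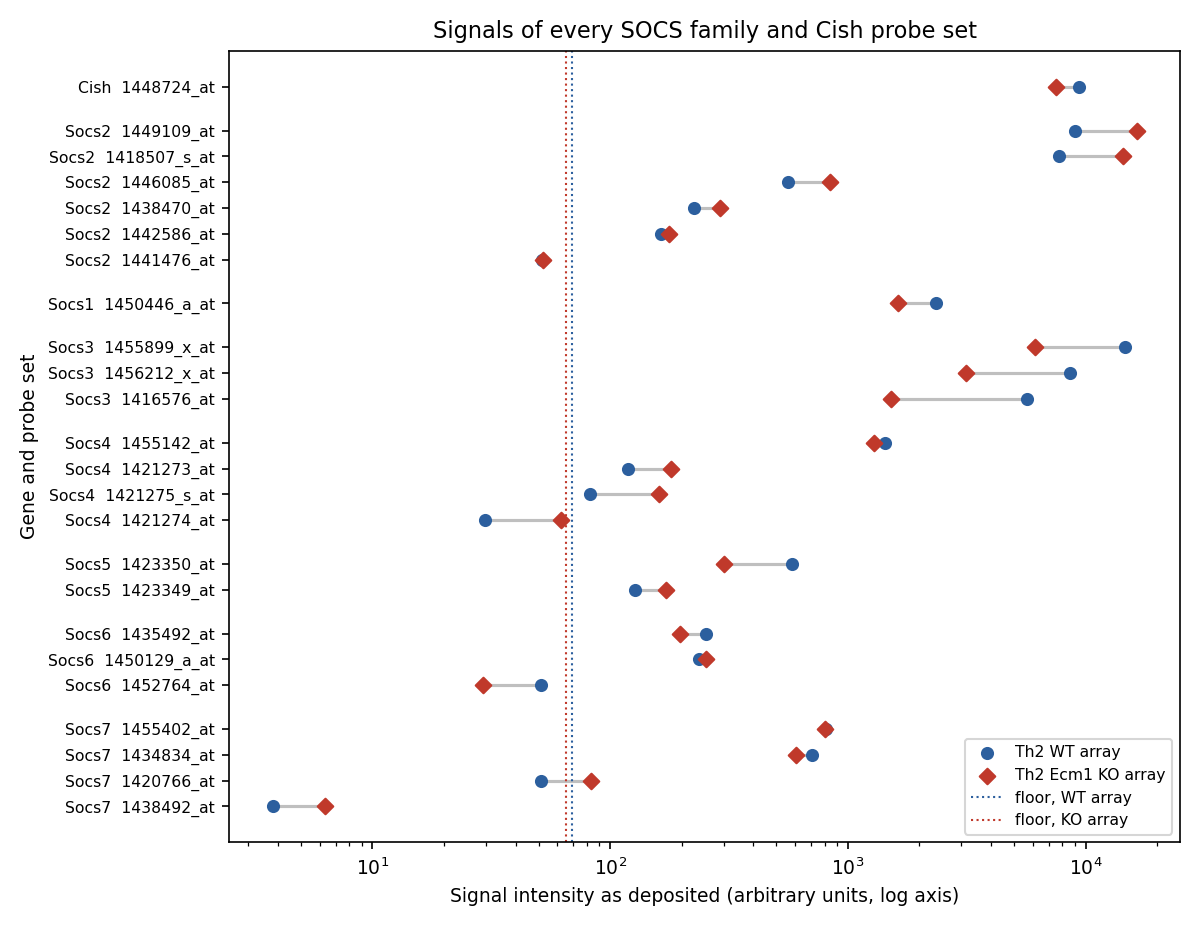
Deposited signal (arbitrary units, log axis) of each of the 24 probe sets on the knockout array (diamonds) and the wild-type array (circles), with each array's floor as a dotted line. All 3 Socs3 probe sets read lower in the knockout, and the 2 brightest Socs2 probe sets read higher there.

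Socs3 encodes an inhibitor that blocks JAK kinases while held on the Il6st chain of IL-6-type receptors. Its brightest probe set read 6126.3 against 14713.7, so the knockout signal was 41.6% of wild type. The second read 3149.7 against 8644.6, and the third, listed under the RefSeq transcript, 1517.4 against 5650.9. After centring the log2 differences were -1.16, -1.35 and -1.79. All 3 probe sets were thus at least 2-fold lower in the knockout, as were 4.68% of all measured probe sets with 1 symbol. The SD over the 3 was 0.32, and the difference of the brightest was -3.22 technical SDs. The 2 brighter ones are of the _x_at type, whose probes can also match other transcripts, and they showed the smaller differences. Of all measured genes 2.90% lay lower than Socs3, and of the 1000 genes nearest to it in signal 1.9% did. T cell markers, given in full with the other cell types below, had a median of -1.03 on the same scale. Fewer cells of a type and less RNA per cell cannot be told apart in these samples.

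With 2 arrays a pattern across samples is 1 number, so likeness to Socs3 means only a similar log2 difference. The nearest genes were Nol4l (-1.16), Phf1 (-1.16) and Slc14a1 (-1.16), and 175 genes lay within 0.1 of Socs3. The value therefore singles out no partner for it.

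Socs2, best known for ending growth hormone signalling and induced through STAT5 in lymphocytes, went the other way. Its brightest probe set read 16395.2 against 9067.8. The other bright one read 14404.3 against 7756.6, and both are listed under its RefSeq transcript. These lay close together, at log2 differences of 0.957 and 0.996, the larger being 1.99-fold and so just short of 2-fold. The 3 measured probe sets listed under single expressed-sequence tags read 844.3 against 558.2, 291.0 against 226.2, and 176.5 against 163.9. They were higher in the knockout as well, by 0.70, 0.47 and 0.21, and the dimmer the probe set the smaller its difference. The last, at 52.2 against 51.6, lay below the floor on both arrays. Of all measured genes 92.1% lay below Socs2.

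The gap between Socs2 and Socs3 does not depend on how the arrays are scaled against each other by a constant. It was 2.12 on the log2 scale, a 4.34-fold change in their ratio, against a technical SD of 0.51 for such a gap. These genes hold the highest and lowest values of the 8 members, so the gap is the range of the family. The technical SD holds only error between probe sets, while the values of all measured genes had an SD of 0.67. That SD is for single genes, not for a gap between genes, and the range usual for 8 genes was not computed. Between any of the 5 measured Socs2 probe sets and any of the 3 for Socs3 the gap ran from 1.37 to 2.79, without overlap. For genes picked as the highest and lowest of 8 this was likely from the start, and probe sets are not replicates.

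Cish, which shares STAT5 control and close sequence kinship with Socs2, did not follow it. Its single probe set read 7497.1 against 9343.7, a log2 difference of -0.21 that is within the technical SD, though it passes it after quantile normalization (-0.39). Socs2 lay 1.17 above Cish, more than the technical SD of 0.51 for such a gap. With no second probe set, the value of Cish has no internal check.

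Socs1, whose product inhibits JAK kinases directly and curbs interferon-γ and IL-4 responses, read 1626.7 against 2341.7 on its only probe set. The log2 difference was -0.42, which is -1.17 technical SDs, and 20.4% of measured genes lay lower. Its close relative Socs3 lay 0.74 below it, against a technical SD of 0.51 for such a gap.

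**Figure D2:**
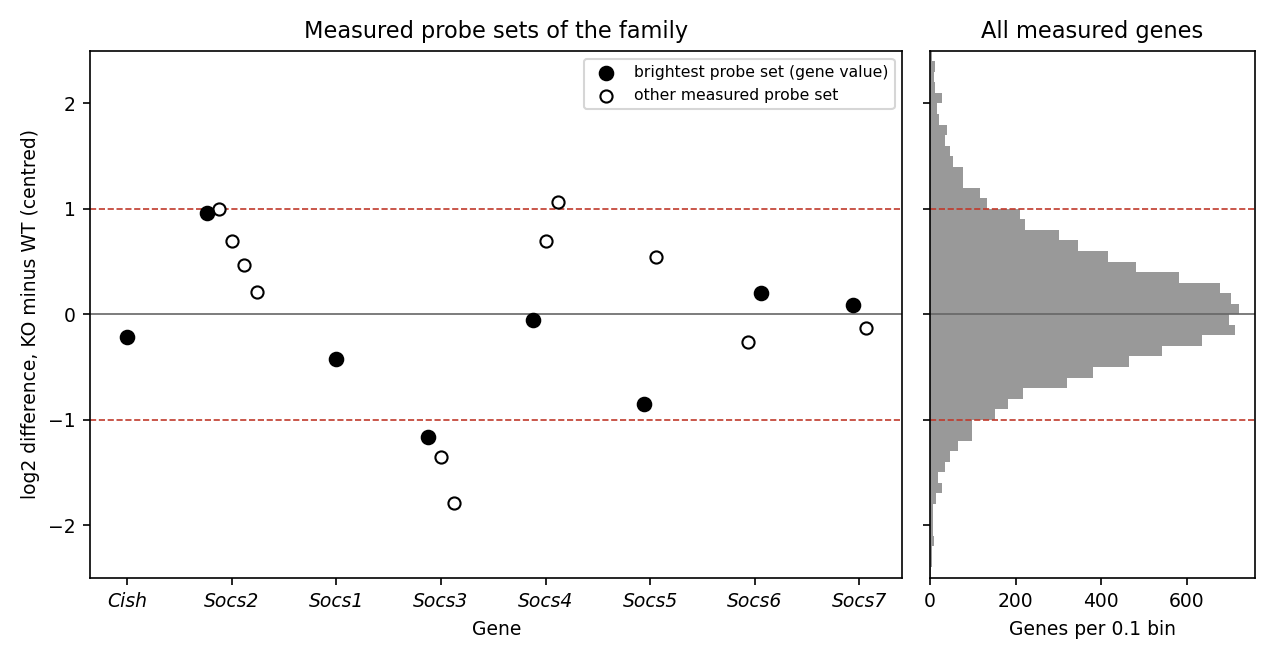
Left, centred log2 differences (knockout minus wild type) of the 19 measured probe sets by gene, with filled points for the brightest. Right, the histogram of all measured genes in bins of 0.1, drawn out to 2.5 either way, with dashed lines at 2-fold. Socs3 lies wholly below the lower line, Socs2 wholly above 0, and Socs4 to Socs7 have points on both sides of 0.

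Socs4 to Socs7 have long N-terminal regions and are tied less to cytokine feedback than to receptor tyrosine kinases. After centring, each had measured probe sets on both sides of 0. Of the 6 members with 2 measured probe sets, these 4 had their 2 brightest on opposite sides, where 26.0% of 4657 genes did. Without centring both measured Socs7 probe sets lie below 0, and the counts are 3 of 6 and 25.5%.

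Socs5, reported to hold back the IL-4 receptor and the epidermal growth factor receptor, showed the sharpest conflict. Its brighter probe set read 301.8 against 583.9 (-0.85), and the dimmer one 172.6 against 126.9 (0.55). The annotation lists both under the same expressed-sequence tag. Their gap of 1.40 was matched or passed by 1.59% of genes with 2 measured probe sets, whose median gap was 0.28. The level of Socs5 in the knockout is therefore not settled by these arrays.

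Socs4, which acts on the epidermal growth factor receptor, read 1289.7 against 1436.5 on its brightest probe set (-0.05). The other measured ones read 180.0 against 119.2 (0.70) and 160.5 against 82.3, the latter 2.09-fold higher in the knockout and the only family probe set that was at least 2-fold higher. Of all measured probe sets with 1 symbol, 7.22% were at least 2-fold higher. The last, at 61.9 against 29.9, lay below the floor. The bright probe set and the 3 dim ones come from different transcript records.

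Socs6, a regulator of insulin and Kit receptor signalling, read 252.4 against 236.0 (0.20), and 196.1 against 252.1 on its other measured probe set (-0.26). The third read 29.3 against 51.2, below the floor. Socs7, which binds the adaptor Nck and insulin receptor substrates, read 805.2 against 812.5 (0.09) and 603.4 against 707.5 (-0.13). Of its other probe sets, 1 read 83.1 against 51.3, the wild-type signal being below the floor, and 1 read 6.3 against 3.8, below it on both arrays. None of the measured differences of Socs6 or Socs7 exceeded the technical SD of 0.36.

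**Figure D3:**
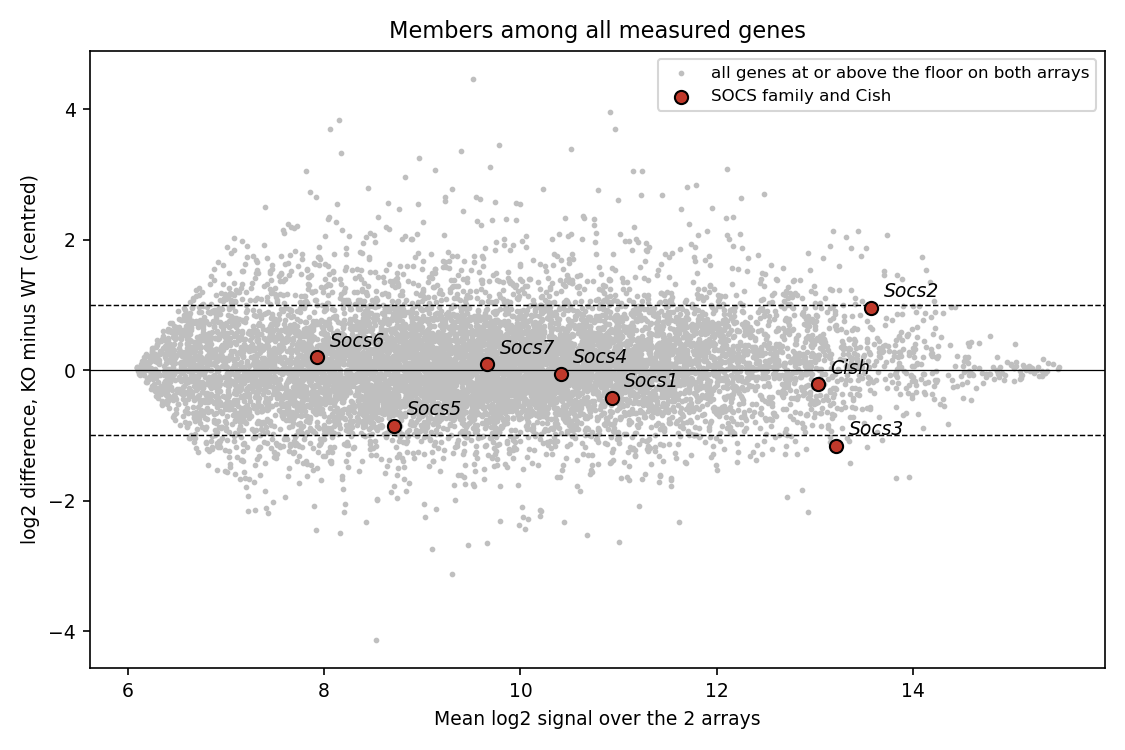
Centred log2 difference (knockout minus wild type) against mean log2 signal for all 10144 measured genes in grey, with the 8 members in red and 2-fold as dashed lines. Socs2 and Socs3 lie among the brightest genes near or past opposite 2-fold lines. Signal cannot be compared between genes as a level of RNA.

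Markers of cell types differed between the arrays in the same range as Socs2 and Socs3. All 9 T cell markers found were lower in the knockout, 5 of them at least 2-fold (Cd4, Cd6, Cd5, Cd247 and Cd28), with a median of -1.03 and summed signals of 43603.6 against 85334. Cd4 read 932.2 against 3022.3, and Cd3e 3382.8 against 6210.6. Socs3 lay -0.14 from the T cell marker median, and Socs2 1.98 above it. All 6 measured B cell markers were higher, 3 of them at least 2-fold (Blnk, Cd79b and, except without centring, Blk), with a median of 1.005, while Pax5 did not reach the floor on either array. The sum over the 7 B cell markers found was 34010.6 against 16740.9. All 5 measured plasma cell markers were higher, 4 of them at least 2-fold (Sdc1, Derl3, Mzb1 and Jchain), with a median of 1.53 and summed signals of 62174.8 against 26828.6. The Jchain call is lost under each other scaling (0.96 without centring and 0.95 after quantile normalization or loess), and that of Sdc1 (928.7 against 76.9) at the higher floor, the 70th percentile, and with probe sets averaged. All 5 measured macrophage and monocyte markers were higher, 2 of them at least 2-fold, Lyz2 (2796.2 against 275.5) and Csf1r (243.5 against 120.2), though neither is measured on both arrays at the higher floor. The list had a median of 0.97, sums of 4041.1 against 1039.8, and Itgam below the floor on both arrays. Of 5 measured CD8 and NK cell markers 4 were at least 2-fold lower (Klrd1, Nkg7, Cd8a and Cd8b1), with a median of -1.19 and sums of 1319.2 against 3195.3. Of these, Cd8b1 is the only one still measured on both arrays at the higher floor, and Cd8a (112.4 against 276.3) is at -0.04 with probe sets averaged. Socs2 lay -0.05 from the B cell median and -0.01 from the macrophage median. Of the dendritic, neutrophil, mast cell and erythroid lists, 1, 0, 1 and 0 genes were measured. The part of cell composition in the Socs2 and Socs3 values was not tested.

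The genes around the family in its pathway were described from lists, beside the shares of all measured genes past 2-fold, 7.15% higher and 4.45% lower, and the 46.9% that lay below 0. Of 26 cytokines that signal through JAK and STAT, 9 were measured, and Il2, Il6 and Ifng were below the floor on both arrays. Il13 (1.89) and Lif (1.37) were at least 2-fold higher, and Clcf1 (-1.27) and Il21 (-1.19) at least 2-fold lower. Lif and Clcf1 act through Il6st, the docking chain of Socs3. Lif read 2647.1 against 1100.3, and Clcf1 584.3 against 1518.5. The list median was -0.19 and turned to 0.14 with no floor. The call for Il13 is lost at the higher floor.

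Of 23 measured receptors, 3 were at least 2-fold lower, 2 higher and 18 neither, with a median of -0.19. Ifngr1, the ligand-binding chain of the interferon-γ receptor that Socs1 restrains, read 1306.9 against 4464.5 (-1.67). Il27ra (-1.64), which pairs with Il6st, and Il7r (-1.43) were the other lower ones. Csf2rb, the shared chain for IL-3, IL-5 and GM-CSF, read 3033.4 against 647.0 (2.33), and Lifr 519.2 against 222.3 (1.33), though the Lifr call is lost at the higher floor or with probe sets averaged. For the chains that SOCS members bind or answer to, Il6st was at -0.38, Il4ra at -0.46, Il2ra at 0.74 and Il2rb at -0.15. The growth hormone receptor Ghr did not reach the floor on either array.

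In the signalling core, Jak3, Stat5b and Stat4 were just past 2-fold lower, which was 1 of 4 kinases and 2 of 6 factors. All 4 Janus kinases lay below 0 (median -0.83), with Jak3 at -1.05, Jak1 at -0.89, Jak2 at -0.78 and Tyk2 at -0.13. All 6 STAT factors found lay below 0 (median -0.81), with Stat5b at -1.06, Stat4 at -1.05, Stat2 at -0.98, Stat6 at -0.64, Stat5a at -0.48 and Stat3 at -0.44. Both medians kept their sign under all 7 alternatives. Tyk2 lies within the technical SD, and Stat5b, whose other probe set was at 0.17, lost its call with probe sets averaged. Jak1 passes 2-fold after quantile normalization (-1.03) and loess (-1.02), and is at -0.81 with probe sets averaged. Stat2 passes it without centring (-1.09) and is at -0.69 with probe sets averaged. Its other measured probe set was at -0.40, and at the higher floor it is not measured on both arrays. These medians lie close to that of the T cell markers (-1.03).

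Inhibitors outside the family mostly lay within 2-fold, with 10 of 12 neither higher nor lower at that size and a median of -0.24. The exceptions were Usp18, which blocks type I interferon receptors (124.2 against 412.6, -1.63), and Cblb, a ubiquitin ligase that restrains T cell activation (946.1 against 2231.4, -1.13). Pias4 (-0.41) and the phosphatase Ptpn2 (-0.30) followed. Ptpn2 lies within the technical SD, and with probe sets averaged Pias4 was at -0.12 and Ptpn2 at 0.05. At the higher floor Usp18 is not measured on both arrays.

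For the ubiquitin ligase on which every SOCS box depends, none of 9 genes was at least 2-fold higher and 1 was at least 2-fold lower. The median was 0.26, within the technical SD, and 7 of the 9 lay above 0, as did 53.1% of all measured genes. Eloc (elongin C) was at 0.68, Nedd8, which activates cullins, at 0.61, Elob at 0.50 and Cul5 at 0.33. Rbx1 (-1.06) and Arih2 (-0.76) were lower, and the 2-fold call for Rbx1 is lost after quantile normalization (-0.99), after loess (-0.97) and at the higher floor. Eloc had 4 measured probe sets, from -0.33 to 1.08, and Arih2 had 4, from -0.76 to 0.36. Among 14 measured genes for other SOCS box proteins the median was 0.12, with Neurl2 at 0.62, Spsb1 at 0.55 and Spsb3 at 0.50. Asb13 (-1.20) was the single one past 2-fold, but its other probe sets reached 0.06 and the call is lost with probe sets averaged or without _x_at and _s_at probe sets.

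Other genes induced through the STAT factors are given by factor. Of 14 linked to STAT5, 2 were at least 2-fold higher (Lif and Lta), none at least 2-fold lower, and the median was -0.11. Lta (1.06) is at 0.96 without centring. In this group 6 lay above 0 and 8 below, with Il2ra at 0.74 and the perforin gene Prf1 at -0.67. Of 10 linked to STAT3, which induces Socs3, 8 lay below 0 with a median of -0.39. They were led by Il21 (-1.19), Il6ra (-0.98), Maf (-0.73) and Bcl3 (-0.50). The other measured probe set of Il6ra was at 0.10, and Il6ra was at -0.44 with probe sets averaged. Genes linked to STAT6 were split 4 to 4, from Nfil3 (-0.67) to Chil3 (3.84), with Arg1 at 3.25 and Xbp1 at 0.97. Markers of macrophages and plasma cells were higher in the knockout and those of T cells lower, and the part of cell composition in this list was not tested. Arg1 and Chil3 were the 2 past 2-fold, and at the higher floor neither is measured on both arrays. Xbp1 also passes 2-fold with probe sets averaged (1.34) or without _x_at and _s_at probe sets (1.35). The list median of 0.13 turns to -0.36 at the higher floor.

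Among 12 measured genes whose proteins SOCS members bind, 10 lay below 0, with a median of -0.38. By brightest probe set, Igf1r (-0.84), Trim8 (-0.63) and Sorbs3 (-0.58) were lowest. Igf1r had 4 measured probe sets, from -0.84 to -0.10, and Trim8 had 3, from -0.63 to 0.10. With probe sets averaged Igf1r was at -0.48 and Trim8 at -0.32. Irs2, an insulin receptor adaptor, was at least 2-fold higher (576.2 against 280.6, 1.14), a call lost at the higher floor. Kit and Irs1 were below the floor on both arrays.

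**Figure D4:**
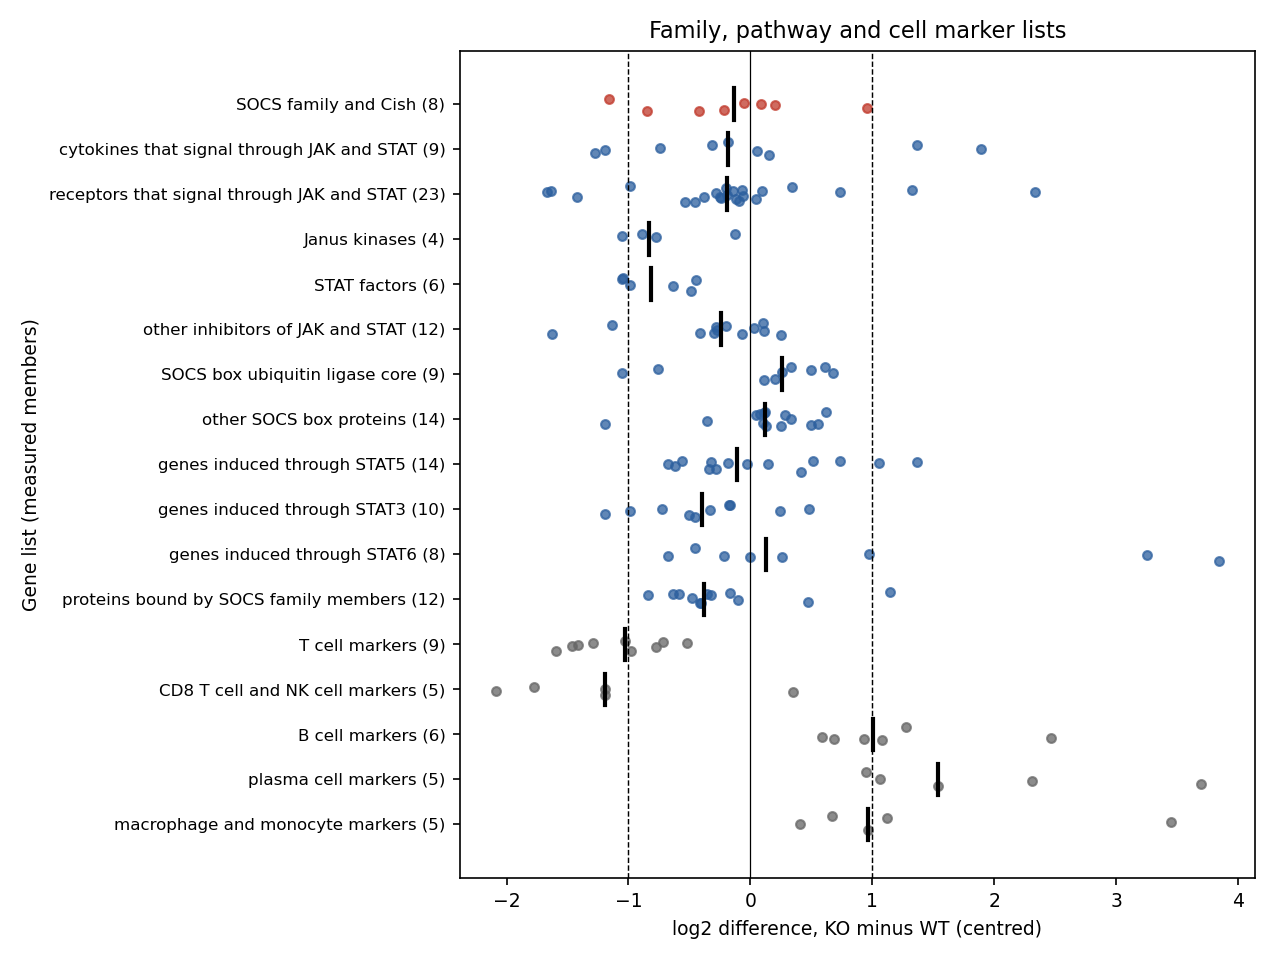
Centred log2 differences (knockout minus wild type) of the measured genes of each list, 1 point a gene, with list medians as black bars, 2-fold as dashed lines and the number of measured genes in brackets. The Janus kinases and STAT factors lie wholly below 0, the SOCS family spans -1.16 to 0.96, and the T cell and B cell markers lie on opposite sides.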

How the data were processed

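Biotin-labelled cRNA from 3 µg of total RNA was hybridised to Affymetrix mouse arrays, per the labels' protocols. The deposited values are linear signal intensities, 1 for each of 45101 probe sets and array. No source used here names the software behind them. Trimmed to the central 96% of values, both arrays average 500.0036 and 500.0035, which is what scaling each array to a common trimmed mean would give, a step no source used here records. The 75th percentiles (423.4 and 456.2) differ.

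Gene names came from the platform annotation, and gene identifiers of 34741 of 34945 with 1 symbol were found in RefSeq. The 64 control probe sets were left out, and 932 probe sets with several symbols named no member. Signals were taken to log2 and centred with Python 3.11.15, numpy 2.4.6 and pandas 2.3.3. Genes below the floor on 1 array have only a bound. No test was run. The number of arrays limits the precision. The script was tested on simulated data.

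The members, gene lists, the 2-fold limit and the alternatives were chosen with earlier results of these data known. The text names all members, the Janus kinases and STAT factors described, the 4 largest differences among measured genes of each pathway list, and preset markers. A further gene list is not reported here. Other named genes (Lifr, Il6st, Il4ra, Il2ra, Il2rb, Ghr, Il2, Il6, Ifng, Elob, Cul5, Cul2, Kit, Irs1, Cd5, Cd6, Cd247, Cd28, Blk, Blnk, Pax5, Itgam, Derl3, Mzb1, Jchain, Klrd1, Nkg7, Cd8b1, Xist, Eif2s3y) were chosen after their values were seen. Alternatives were no centring, quantile normalization, loess with span 0.3 (statsmodels 0.14.6), a floor at the 70th percentile, no floor, averaged probe sets, and no _x_at or _s_at probe sets.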

Additional observations from a re-analysis of the deposited data

How the results depend on the processing

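No paired analysis was possible because there was a single array in each group. The count of members at least 2-fold lower stayed at 1 and that of members at least 2-fold higher at 0 under all 7 alternatives, and Socs3 ran from -1.79 to -1.18. Socs3 was at -1.79, and Socs2 minus Socs3 at 2.75, without _x_at and _s_at probe sets. With probe sets averaged, Socs2 was at 0.57, Socs4 at 0.72, Socs5 at -0.15 and Socs6 at -0.25, so Socs4 and Socs6 changed sign. Socs7 changed sign without centring (-0.01). Socs6 fell below the higher floor and has no value there. Over all genes, 725 were at least 2-fold higher and 451 lower. These counts were 416 and 285 with the floor at the 70th percentile and 2818 and 2316 with no floor, and genes higher made up 61.6% of the 2-fold genes, against 49.0% without centring. The median of all measured genes was 0.04 with centring and -0.06 without. The technical SD was 0.42 among the dimmest genes, those with Socs5 and Socs6, and 0.29 among the brightest, those with Cish and Socs1 to Socs4.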
